A study of Mus musculus with 15 samples.

Results

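The 10 genes described here belong to the proteoglycan matrix and were followed in 15 mouse RNA sequencing (RNA-seq) libraries from 5 groups, 3 libraries in each. They were taken by symbol from the 56748 genes of the deposited table, each symbol gave 1 gene, and all 10 passed the filter on low counts in both organs. They are the class I small leucine-rich proteoglycans *Dcn* (decorin), *Bgn* (biglycan) and *Aspn* (asporin), the class II members *Lum* (lumican), *Fmod* (fibromodulin) and *Prelp*, the class III member *Ogn* (osteoglycin), the large proteoglycan *Vcan* (versican), and the extracellular sulfatases *Sulf1* and *Sulf2*. The study asked whether LepAb, an antibody that neutralizes the hormone leptin, alters fibrosis of injured organs. All mice were wild-type (WT) male C57Bl/6 animals, and every library carries the same batch label. WTK kidneys came from mice given vehicle in place of folic acid, and the labels do not say whether these mice received an antibody. IgGK and LepK kidneys came from mice given 1 intraperitoneal dose of folic acid (200 mg/kg), which injures kidney tubules, and then control IgG or LepAb at 10 mg/kg every other day. By the study's methods this antibody course began at day 1 and ended before the kidneys were taken. Kidneys were taken at day 28 from mice that were 10 to 12 weeks old at injection. IgGL and LepL lungs came from mice given intratracheal bleomycin (1.5 units/kg) at 12 weeks of age, which injures the lung, and then IgG or LepAb at the same dose until day 14. A lung group without bleomycin was not analysed here, so the lung values have no uninjured level beside them.

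Small leucine-rich proteoglycans are secreted proteins whose arched core of leucine-rich repeats binds collagen and governs how fibrils assemble. Decorin and biglycan carry chondroitin or dermatan sulfate chains and can bind the growth factor TGF-beta, whereas lumican, fibromodulin and osteoglycin can carry keratan sulfate. Versican is a far larger molecule that binds hyaluronan and forms a loose, hydrated matrix during injury and inflammation. *Sulf1* and *Sulf2* encode enzymes that remove 6-O-sulfate groups from heparan sulfate outside the cell, which alters how growth factors bind to it.

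Several of the 10 genes are neighbours in the genome, at positions that the deposited table gives and that the submitters' processing notes place on GRCm39. *Dcn* (chromosome 10, 97315471 to 97354005) and *Lum* (97400990 to 97408565) stand on the same strand beside *Kera* and *Epyc*. *Aspn* (chromosome 13, 49697919 to 49721041) and *Ogn* (49761522 to 49777977) stand in a row with *Ecm2* and *Omd*. *Prelp* (chromosome 1, 133838042 to 133849152, minus strand) and *Fmod* (133964992 to 133976015) lie near *Optc*. The others are apart from these clusters: *Bgn* on the X chromosome (72527208 to 72539539), *Vcan* on chromosome 13 (89803431 to 89890628, minus strand), *Sulf1* on chromosome 1 (12762501 to 12931416) and *Sulf2* on chromosome 2 (165915009 to 165997583, minus strand). The libraries do not keep strand, so reads where genes overlap cannot be divided. *Aspn* and *Ogn* lie wholly within *Cenpp*, which had 277 counts over all libraries against 4994 for *Aspn* and 35769 for *Ogn*. *Sulf2* shares 154 bases with the highly counted gene *Ncoa3*.

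The sequence before the start site is printed for 4 members whose levels moved differently: *Bgn*, the most abundant and higher after folic acid, *Fmod*, the member that was lower, *Ogn*, which was not called, and *Vcan*, whose level varied opposite to that of *Ogn* among the IgGL lungs. Each window is the 250 bases upstream of the RefSeq start in GRCm38.p6, a different build from that of the deposited positions, written 5′ to 3′ on the gene's strand. Capitals mark the motifs GGGCGG (the GC box), CCAAT and TATAAA on either strand, and copies can overlap.
*Bgn*, chrX:73483351-73483600, plus strand: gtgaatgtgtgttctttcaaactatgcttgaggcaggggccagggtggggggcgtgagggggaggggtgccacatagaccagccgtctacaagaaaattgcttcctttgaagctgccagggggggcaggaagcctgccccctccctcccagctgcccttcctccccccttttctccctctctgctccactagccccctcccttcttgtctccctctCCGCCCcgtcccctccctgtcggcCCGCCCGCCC
*Fmod*, chr1:134037004-134037253, plus strand: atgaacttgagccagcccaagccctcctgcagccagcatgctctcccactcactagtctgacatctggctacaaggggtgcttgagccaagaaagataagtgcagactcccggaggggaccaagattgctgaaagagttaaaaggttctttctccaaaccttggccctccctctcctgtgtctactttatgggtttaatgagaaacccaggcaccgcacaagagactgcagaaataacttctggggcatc
*Ogn*, chr13:49607765-49608014, plus strand: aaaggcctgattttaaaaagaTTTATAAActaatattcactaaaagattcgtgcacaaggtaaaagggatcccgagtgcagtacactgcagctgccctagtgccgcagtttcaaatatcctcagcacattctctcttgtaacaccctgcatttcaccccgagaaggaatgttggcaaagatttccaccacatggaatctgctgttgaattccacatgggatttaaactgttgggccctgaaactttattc
*Vcan*, chr13:89742513-89742762, minus strand: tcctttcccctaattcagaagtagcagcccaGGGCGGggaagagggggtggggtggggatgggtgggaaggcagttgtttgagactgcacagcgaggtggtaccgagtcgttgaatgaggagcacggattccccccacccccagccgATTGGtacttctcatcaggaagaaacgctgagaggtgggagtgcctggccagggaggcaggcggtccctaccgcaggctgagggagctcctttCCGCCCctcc
The *Bgn* window has a GC content of 64.4% and 3 copies of GGGCGG, and the *Vcan* window has 62.4% with 2 copies and 1 CCAAT. The *Ogn* window has 42% GC and 2 overlapping TATAAA matches on opposite strands far from the start, and the *Fmod* window has 51.2% GC and none of the motifs. Over 32841 mouse promoter windows of the same length the median GC content was 52.4%, and GGGCGG was present in 32.7%, CCAAT in 33.9% and TATAAA in 12.4%. Also searched, on both strands, were TGANTCA (an AP-1 type sequence, 6.75% of windows), TTCNNNGAA (a STAT type sequence, 7.02%) and CAGACA (17.1%). TGANTCA and TTCNNNGAA had no match in any window of the 7 members with an entry, which are these 4, *Aspn*, *Prelp* and *Sulf2*, and CAGACA had 1 match, in a *Sulf2* window. *Dcn*, *Lum* and *Sulf1* had no entry. These matches describe letters and not sites.

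Levels can be compared between genes only per length, for which the deposited FPKM values (fragments scaled to gene length and library depth) were used. *Bgn* had the highest FPKM of the 10 in every group and was above the next gene in every library. Its mean FPKM was 18.1 ± 1.57 (SD, n = 3, as for all means here) in WTK, 67.4 ± 8.83 in IgGK and 39.9 ± 6.39 in LepK, and 221 ± 12.1 in IgGL and 126 ± 22.5 in LepL. The next places differed by group. In WTK, *Prelp* (6.30 ± 0.995 FPKM), *Ogn* (6.10 ± 0.0708) and *Dcn* (5.08 ± 1.26) followed *Bgn*, and the ranges of neighbours in this order overlapped between *Prelp* and *Ogn* and between *Ogn* and *Dcn*. In IgGK, *Dcn* (12.4 ± 0.0702 FPKM) stood above *Prelp* (8.81 ± 0.740), and *Prelp* above *Sulf2* (5.93 ± 0.647), in each library. In LepL the second place was held by *Ogn* (51.4 ± 11.6 FPKM), not separated from *Prelp* (40.5 ± 5.38). *Vcan* was lowest of the 10 in mean FPKM in every group, at 0.172 ± 0.0908 in WTK and 4.61 ± 3.35 in IgGL. Its transcript is long, and its FPKM is per kilobase of a 14462-base gene length.

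The summed FPKM of the 8 proteoglycans was 40.5 ± 3.95 in WTK, 99.6 ± 10.4 in IgGK and 65.7 ± 6.76 in LepK, and the 3 kidney groups did not overlap. It was 327 ± 38.7 in IgGL and 263 ± 26.0 in LepL, where the groups did overlap. The mixture differed as well as the amount. *Bgn* made 42.1 to 47.9% of the sum in WTK, 66.0 to 69.5% in IgGK and 55.4 to 63.3% in LepK, against 59.5 to 74.8% in IgGL and 40.9 to 53.3% in LepL. *Ogn* made 15.1 ± 1.34% of the sum in WTK, 5.13 ± 0.0968% in IgGK and 8.31 ± 1.34% in LepK. In the lung its share was 8.54 ± 3.61% in IgGL and 19.5 ± 3.76% in LepL. The share of *Fmod* was 8.48 ± 0.512% in WTK and 2.17 ± 0.432% in IgGK, while that of *Dcn* lay between 12.4% and 12.6% in the mean of each kidney group. Shares add to 100%, so a larger share of *Bgn* lowers the others.

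**Figure D1:**
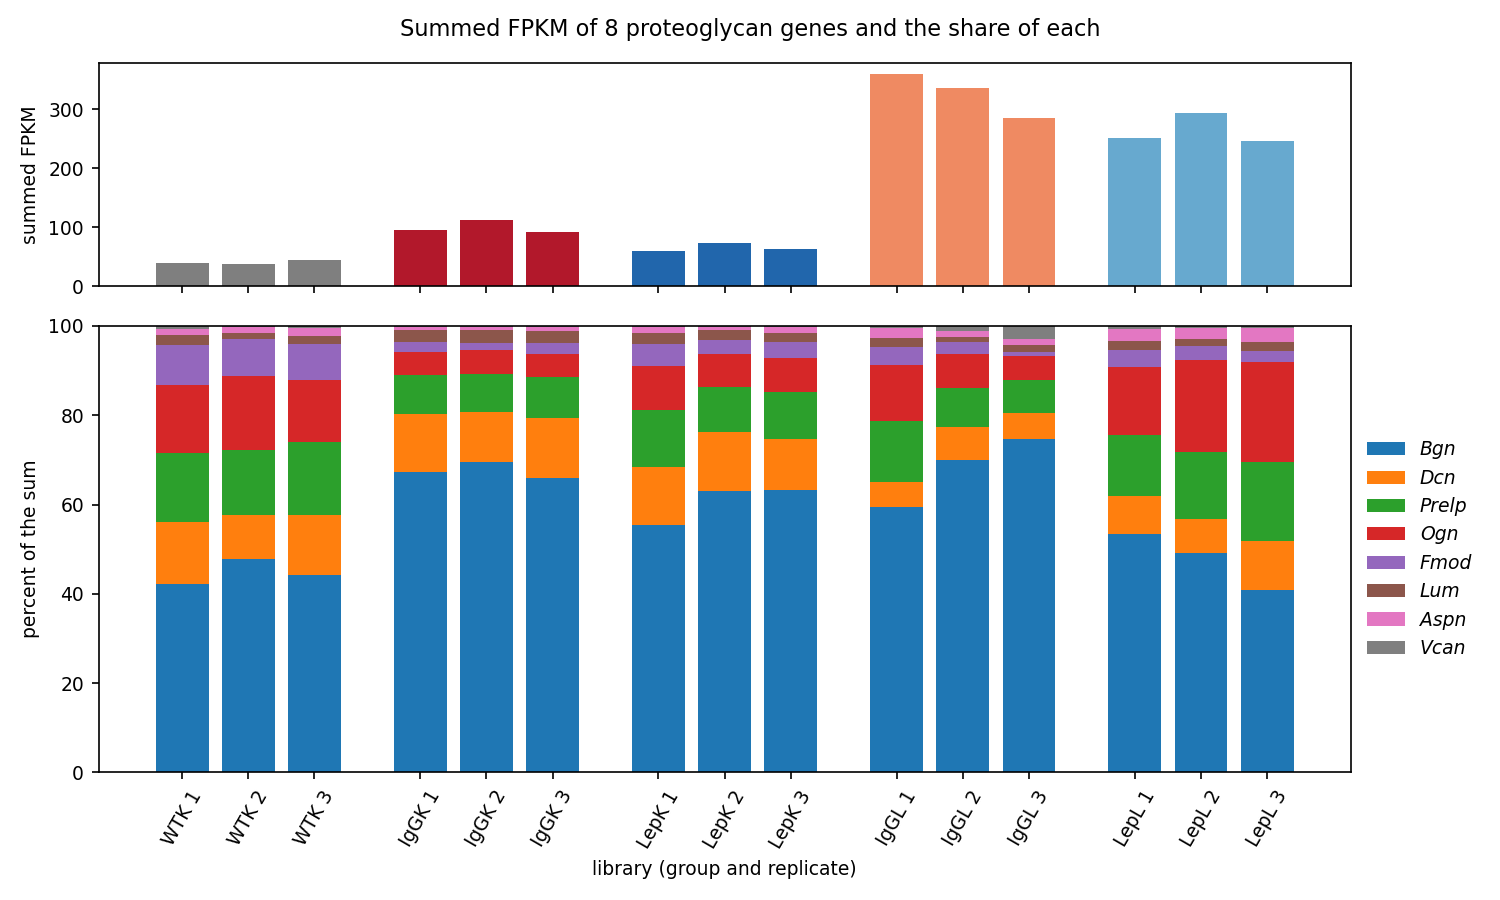
Top, summed FPKM of the 8 proteoglycan genes in each of the 15 libraries, coloured by group. Bottom, percent of that sum taken by each gene; *Bgn* takes 66.0 to 69.5% in the IgGK libraries against 42.1 to 47.9% in WTK.

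Changes between groups were tested on the counts. Values per library are normalized CPM (counts scaled to a common library size), with kidney and lung normalized apart, so that kidney and lung CPM are not on a common scale. A gene was called when its log2 fold change was beyond 0.5 in either direction with an adjusted P (Padj, edgeR's quasi-likelihood test with Benjamini-Hochberg adjustment over all genes tested) under 0.05. Total counts ran from 25913969 to 38924788 per library, at which 1 count is 0.0257 to 0.0386 CPM. The lowest count of any member in a library was 30, for *Vcan*. Scaling by library size alone, in place of TMM factors that ran from 0.844 in WTK to 1.18 in IgGK, gave an all-gene median log2 fold change of 0.48 for IgGK against WTK, -0.19 for LepK against IgGK and 0.29 for LepK against WTK. All genes called then stood at 7803 higher and 1178 lower in the first (4253 and 3057 with TMM), 408 and 2185 in the second (858 and 1174) and 4782 and 512 in the third (2984 and 1431). The summed CPM of 6 proximal tubule markers was 3126 to 14214 in the kidneys and 30.7 to 159 in the lungs, and that of 6 alveolar type 2 cell markers was 6921 to 24281 in the lungs, so each library matched its organ. IgGK replicates 1 and 2 also held transcripts of 4 adrenal cortex genes at summed CPM of 504 and 618, against 14.3 in IgGK replicate 3 and 5.40 to 7.64 in the other kidneys. Member changes that rest on IgGK are therefore also given without these 2 libraries.

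**Figure D2:**
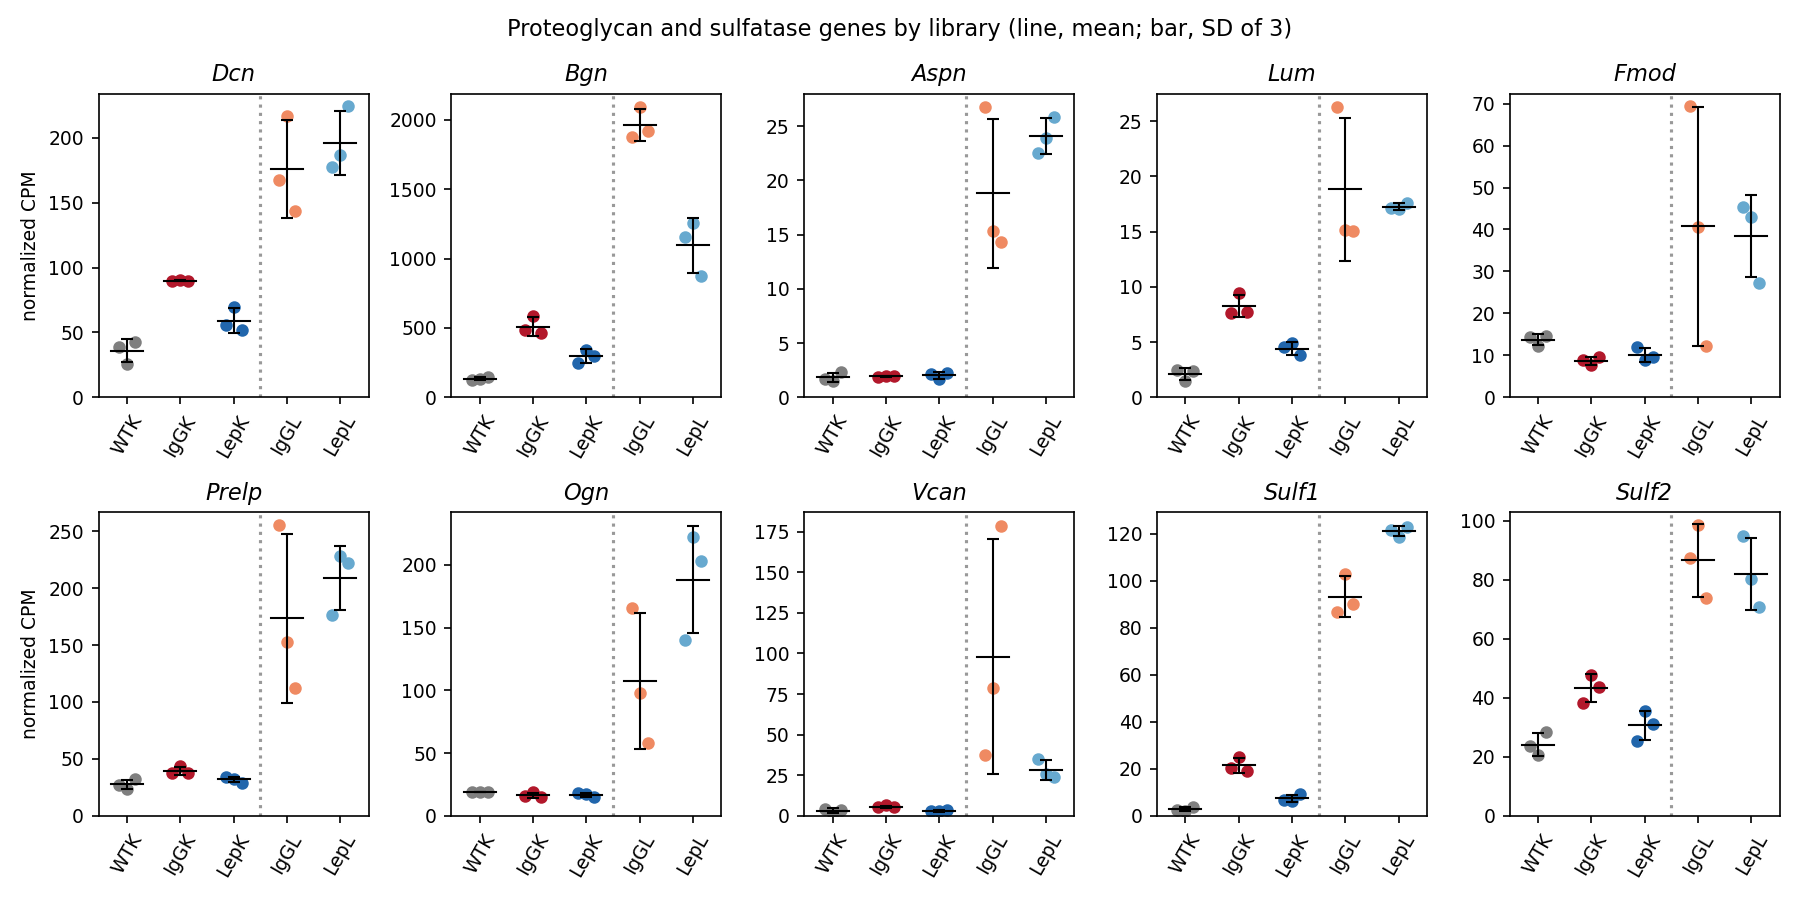
Normalized CPM of each gene in every library, with the group mean (line) and SD (bar, n = 3). Kidney groups stand left of the dotted line and lung groups right of it, normalized apart; *Bgn*, *Lum* and *Sulf1* are lowest in WTK, highest in IgGK and between in LepK, with no overlap of these 3 groups.

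Folic acid with IgG was accompanied by higher transcript levels of 7 of the 10 genes and a lower level of 1, among 21.7% of all 19593 genes tested called higher and 15.6% called lower. The sulfatase *Sulf1* had the largest change, 7.66-fold, followed by *Lum* (3.92-fold), *Bgn* (3.82-fold) and *Dcn* (2.50-fold). *Fmod* fell to 0.636 of its WTK level, and *Aspn* and *Ogn* were not called. In whole tissue, a change in the number of cells that express a gene and a change in RNA per cell cannot be told apart.

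*Bgn* stood at 124, 131 and 146 CPM in the WTK kidneys and at 484, 586 and 461 in the IgGK kidneys. The log2 fold change was 1.94 (SE 0.12, Padj = 1.39e-07). *Dcn* stood at 39.0, 25.8 and 42.7 CPM in WTK and at 89.5, 90.1 and 89.4 in IgGK. The IgGK libraries lay within 1 CPM of each other, above each WTK library, and the log2 fold change was 1.32 (SE 0.15, Padj = 1.22e-05). *Aspn*, the third class I gene, was near 2 CPM in all 6 kidneys, with a log2 fold change of 0.08 (SE 0.27, Padj = 0.834). Of the 3 class I genes, 2 were thus called higher and 1 was not called.

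Of the class II genes, 2 were called higher and 1 lower. *Lum*, which supports collagen fibril spacing in the cornea and other tissues, had 2.49, 1.50 and 2.34 CPM in WTK and 7.65, 9.46 and 7.75 in IgGK (log2 fold change 1.97, SE 0.22, Padj = 9.82e-06). *Prelp*, a basement membrane-associated member, had 27.0, 23.5 and 32.1 CPM in WTK and 37.3, 43.4 and 37.9 in IgGK. Its log2 fold change of 0.52 (SE 0.11, Padj = 0.00154) was just past the fold threshold, and it was under it without WTK replicate 2 (0.42) or IgGK replicate 2 (0.46). *Fmod*, which binds collagen at a site shared with lumican, had 14.4, 12.3 and 14.5 CPM in WTK against 8.77, 7.77 and 9.65 in IgGK. It was the 1 member that fell (log2 fold change -0.65, SE 0.14, Padj = 0.00202), and scaling by library size alone ended this call (-0.21, Padj = 0.198). *Ogn*, with 18.8 to 19.1 CPM in WTK and 14.9 to 18.6 in IgGK, had a log2 fold change of -0.22 (SE 0.11, Padj = 0.112), which was 0.23 when scaled by library size alone.

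*Vcan* was low in the kidney, at 4.07, 1.18 and 3.79 CPM in WTK and 5.11, 6.43 and 5.32 in IgGK. It passed narrowly (log2 fold change 0.90, SE 0.35, Padj = 0.0476), and the call was kept in 2 of the 6 tests that left out 1 library, with a value of 0.52 (Padj = 0.0849) without WTK replicate 2, the lowest of the group. *Sulf1* had 2.49, 2.25 and 3.64 CPM in WTK and 20.2, 25.1 and 19.2 in IgGK, with a log2 fold change of 2.94 (SE 0.21, Padj = 2.58e-07). *Sulf2* had 23.6, 20.5 and 28.4 CPM in WTK and 38.2, 47.7 and 43.8 in IgGK, a smaller change of 0.84 (SE 0.14, Padj = 0.000219). The ratio of *Sulf1* to *Sulf2* in FPKM was 0.0549 to 0.0666 in WTK and 0.228 to 0.276 in IgGK. Groups did not overlap for 9 of the 10 genes, all but *Aspn*, and for 62.6% of all genes tested.

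Without both IgGK libraries that held adrenal transcripts, *Dcn*, *Bgn*, *Lum*, *Sulf1* and *Sulf2* had log2 fold changes of 1.32, 1.79, 1.87, 2.78 and 0.86. Those of *Prelp*, *Vcan* and *Fmod* were 0.46, 0.82 and -0.51. This setting was chosen after the data were seen, and it leaves 1 IgGK library, so calls in it are not given. Markers of other cells moved with the same contrast. The summed CPM of 10 fibroblast markers was 186 to 232 in WTK and 1421 to 1618 in IgGK, with 9 of 10 called higher, and that of 8 macrophage markers was 166 to 185 and 781 to 1005, with 8 of 8 called higher. The collagen genes *Col1a1*, *Col1a2* and *Col3a1* weigh most in the fibroblast sum. Their means over the kidney libraries were 170, 212 and 208 CPM, against 67.2 for *Pdgfrb*, the next marker. The 6 proximal tubule markers were all called lower (13349 to 14214 against 3126 to 4160). Adipocyte markers summed to 25.7 to 95.3 CPM in WTK and 295 to 494 in IgGK, with 5 of 6 called higher and 1, *Lep*, lower, and 4 of 5 mesothelial markers were called higher (16.0 to 22.1 against 44.4 to 54.3). The part of these shifts in the proteoglycan changes was not tested.

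**Figure D3:**
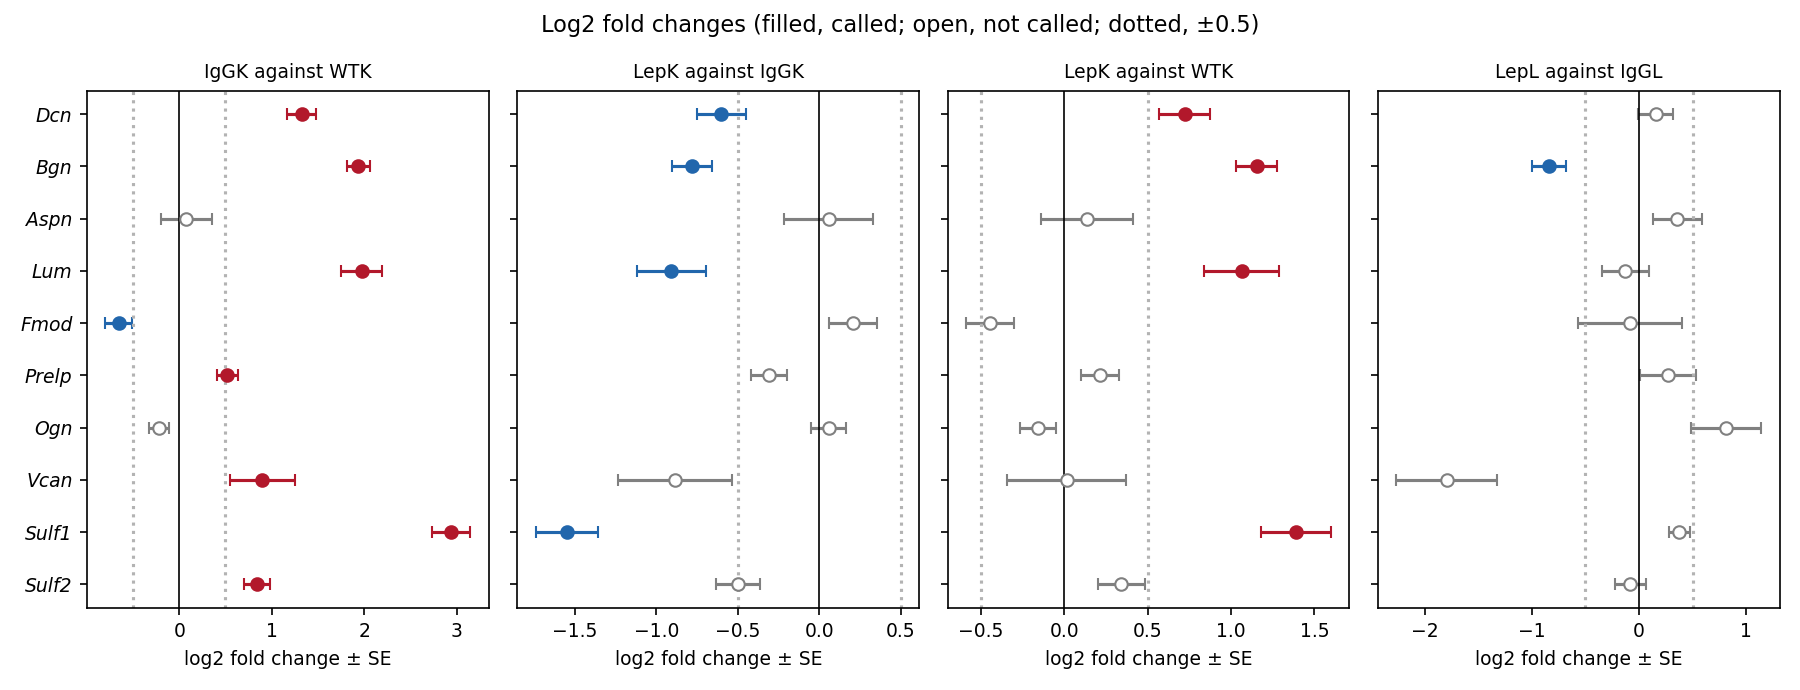
Log2 fold change and SE of each gene in 4 comparisons; filled points passed both thresholds, open points did not, and dotted lines stand at 0.5 and -0.5. *Sulf1* has the largest kidney changes (2.94, -1.55 and 1.39), and *Bgn* is the single filled point in the lung (-0.84); the horizontal scales differ between panels.

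The antibody comparison in the injured kidney, LepK against IgGK, gave 4 members called lower and 0 called higher, where 5.99% of all genes tested were called lower and 4.38% higher. They were *Sulf1*, *Lum*, *Bgn* and *Dcn*, at 0.342, 0.533, 0.582 and 0.659 of their IgGK levels. At an unadjusted p under 0.05, 7 of the 10 passed, all of them lower in LepK, against 6441 of all 19593 genes in either direction. DESeq2 called 5 members lower and 0 higher, among 1383 lower and 949 higher of all genes. This comparison and the folic acid comparison share the IgGK libraries, so that opposite signs in them are not independent.

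*Sulf1* stood at 20.2, 25.1 and 19.2 CPM in IgGK and at 6.52, 6.40 and 9.19 in LepK (log2 fold change -1.55, SE 0.19, Padj = 0.000366). *Bgn* stood at 247, 343 and 301 CPM in LepK, each below the lowest IgGK library at 461 (-0.78, SE 0.12, Padj = 0.00109). *Lum* had 4.54, 4.89 and 3.80 CPM in LepK, below 7.65, the lowest IgGK value (-0.91, SE 0.21, Padj = 0.00985). Both genes of the chromosome 10 pair were called, since *Dcn* had 55.4, 69.7 and 52.1 CPM in LepK against 89.4 to 90.1 in IgGK (-0.60, SE 0.15, Padj = 0.0142). The *Dcn* call was lost without LepK replicate 1 (Padj = 0.0536) or LepK replicate 3 (Padj = 0.0590), with log2 fold changes of -0.55 and -0.52. The values of *Sulf1*, *Bgn* and *Lum* stayed past the thresholds whichever single library was left out.

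*Sulf2* narrowly missed. Its levels of 25.5, 35.4 and 31.0 CPM in LepK lay below the IgGK range of 38.2 to 47.7, and its log2 fold change of -0.497 (SE 0.14, Padj = 0.0222) was just inside the fold threshold of 0.5. *Vcan* had 2.73, 2.78 and 3.62 CPM in LepK, also below every IgGK library, but its estimate was imprecise (-0.89, SE 0.35, Padj = 0.0976). It was called lower by DESeq2 (-0.89, Padj = 0.0417) and by edgeR scaled by library size alone (-1.06, Padj = 0.0454). The same held in edgeR with no filter on low counts (-0.89, Padj = 0.00995) and with only the 2 groups compared (-0.88, Padj = 0.0198). Of all genes, 1018 were higher and 1463 lower with no filter, and 778 and 1217 with the 2 groups. *Prelp* had 34.0, 32.6 and 29.2 CPM in LepK against 37.3 to 43.4 in IgGK (-0.31, SE 0.11, Padj = 0.0685). *Aspn* (0.06, SE 0.27), *Ogn* (0.06, SE 0.11) and *Fmod* (0.21, SE 0.14, Padj = 0.359) had overlapping groups. Groups did not overlap for 7 of the 10 genes and for 37.4% of all genes tested.

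With the 2 adrenal-positive IgGK libraries left out, 1 IgGK library remained. The log2 fold changes were then -0.62 for *Bgn*, -1.37 for *Sulf1*, -0.59 for *Dcn* and -0.80 for *Lum*. Fibroblast markers summed to 509 to 853 CPM in LepK against 1421 to 1618 in IgGK, with 5 of 10 called lower. *Col1a1*, *Col1a2* and *Col3a1* have the highest mean CPM of these markers over the kidney libraries. Macrophage markers summed to 362 to 490 against 781 to 1005, with 7 of 8 called lower, and 4 of 6 proximal tubule markers were called higher. Adipocyte markers summed to 92.8 to 255 against 295 to 494, with 1 of 6 called lower, and 1 of 5 mesothelial markers was called lower. The part of these in the lower proteoglycan levels was not tested.

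LepK kidneys were then set against WTK, the uninjured level. LepK had 4 members called higher and 0 lower, where 15.2% of all genes tested were called higher and 7.3% lower. These were *Sulf1* (log2 fold change 1.39, SE 0.21, Padj = 0.000282), *Bgn* (1.15, SE 0.12, Padj = 2.46e-05), *Lum* (1.06, SE 0.22, Padj = 0.00258) and *Dcn* (0.72, SE 0.15, Padj = 0.00275). At an unadjusted p under 0.05 *Sulf2* also passed on the higher side and *Fmod* on the lower, which made 6 of the 10 members, against 9170 of all 19593 genes. DESeq2 called 4 members higher and 0 lower, among 3135 higher and 1536 lower of all genes. *Fmod* was at 11.9, 8.78 and 9.56 CPM in LepK, below the lowest WTK library at 12.3, with a change that stayed inside the fold threshold (-0.45, SE 0.14, Padj = 0.0271). *Vcan* had nearly equal means, 3.04 ± 0.498 CPM in LepK and 3.01 ± 1.59 in WTK, and its log2 fold change of 0.01 has an SE of 0.36. *Sulf2* (0.34, SE 0.14, Padj = 0.0708), *Prelp* (0.21), *Ogn* (-0.16) and *Aspn* (0.13) were not called. Groups did not overlap for 6 of the 10 genes and for 50.2% of all genes tested. Fibroblast (9 of 10), macrophage (7 of 8), mesothelial (4 of 5) and adipocyte markers (3 of 6, with *Lep* lower) were called higher in LepK than in WTK, and 6 of 6 proximal tubule markers lower. Their part in the 4 member calls was not tested.

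In the lung, LepL against IgGL, *Bgn* was the single member called, at 0.559 of its IgGL level, where 2.36% of all 19617 genes tested were called lower and 1.78% higher. *Bgn* had 1876, 2092 and 1924 CPM in IgGL and 1160, 1257 and 875 in LepL. The lowest IgGL library was far above the highest LepL library, and the log2 fold change was -0.84 (SE 0.16, Padj = 0.0360). The size of this change held when any 1 library was left out (-0.95 to -0.70), but the call held only without IgGL replicate 1 and was lost without any of the other 5 (Padj = 0.0548 to 0.176). Few of all genes were called in those 5 tests: 18 higher and 4 lower without LepL replicate 1, 3 higher and 1 lower without IgGL replicate 3, and 0 in edgeR when IgGL replicate 2 or either of LepL replicates 2 and 3 was dropped, where 3689, 4069 and 3401 genes had an unadjusted p under 0.05.

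*Vcan* had the largest lung change, to 0.288 of its IgGL level, and did not pass (log2 fold change -1.80, SE 0.47, Padj = 0.0608). Its levels were 37.3, 78.5 and 178 CPM in IgGL, a wide spread, and 34.9, 26.0 and 23.7 in LepL. *Vcan* was called by DESeq2 (-1.80, Padj = 0.0379), with no filter on low counts (-1.78, Padj = 5.58e-13), with kidney and lung in 1 fit (-1.79, Padj = 0.00898) and without IgGL replicate 1 (-2.19, Padj = 0.00221). Its size rested on IgGL replicate 3, without which the log2 fold change was -1.04 and not called, and Padj reached 0.235 with 1 library left out. Neither the edgeR fit to the 6 lung libraries nor DESeq2 called a member higher, and *Ogn* and *Sulf1* were higher at an unadjusted p under 0.05, as 5357 of all genes differed in either direction. *Ogn* was called higher by edgeR with no filter (0.82, Padj = 4.15e-05) and with kidney and lung in 1 fit (0.82, Padj = 0.0408). These settings called more of all genes, 1515 higher and 1173 lower with no filter, 1247 and 1046 in 1 fit and 1236 and 1102 with DESeq2, against 349 and 463. *Sulf1* differed in the direction opposite to the kidney, with 86.8, 103 and 89.9 CPM in IgGL and 122, 119 and 123 in LepL. These groups do not overlap, and the log2 fold change was 0.38 (SE 0.10, Padj = 0.0613), inside the fold threshold. *Bgn*, *Vcan* and *Sulf1* were the 3 members whose lung groups did not overlap, against 33.3% of all genes tested.

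The remaining lung values lay within the spread of the libraries. *Ogn* had 166, 97.8 and 58.2 CPM in IgGL and 140, 222 and 203 in LepL (0.81, SE 0.33, Padj = 0.156). *Dcn* had 167, 217 and 143 CPM in IgGL and 177, 186 and 224 in LepL (0.16, SE 0.16, Padj = 0.577). For *Prelp* (0.27, SE 0.26), *Aspn* (0.36, SE 0.23), *Lum* (-0.13, SE 0.22), *Fmod* (-0.08, SE 0.49) and *Sulf2* (-0.08, SE 0.14) the groups also overlapped. The ratio of *Bgn* to *Dcn* in FPKM, both class I genes, was 9.23 to 12.9 in IgGL and 3.74 to 6.46 in LepL. In kidney it was 3.03 to 4.86 in WTK and 4.93 to 6.23 in IgGK. Fibroblast markers summed to 7267 to 8272 CPM in IgGL and 3149 to 4451 in LepL, with 5 of 10 called lower. Not all moved down, since *Tcf21* (0.67), *Fbln1* (0.57) and *Gli1* (0.12) had log2 fold changes above 0 that were not called, and the collagen genes *Col1a1* (-1.21), *Col1a2* (-1.02) and *Col3a1* (-0.99) made up most of the sum. Macrophage markers summed to 1582 to 2104 and 886 to 1283, with 3 of 8 called lower. Alveolar type 2 markers summed to 6921 to 12493 and 18013 to 24281, with 4 of 6 called higher, and adipocyte markers to 32.6 to 65.5 and 71.9 to 143, with 2 of the 5 tested called higher. Mesothelial markers summed to 455 to 620 and 581 to 645, with 2 of 5 called higher. The part of these in the *Bgn* result was not tested.

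The 3 IgGL lungs differed from each other more than the LepL lungs in several members. IgGL replicate 1 had the highest and replicate 3 the lowest *Fmod* (69.3 and 12.3 CPM), *Prelp* (255 and 112), *Ogn* (166 and 58.2) and *Aspn* (26.7 and 14.3), while replicate 3 had the highest *Vcan* (178 against 37.3 in replicate 1). The ratio of *Vcan* to *Ogn* in FPKM was 0.0399, 0.142 and 0.543 in the 3 IgGL lungs and 0.0207 to 0.0443 in LepL. *Bgn*, *Sulf1* and *Sulf2* showed no such spread, at 1876 to 2092, 86.8 to 103 and 73.9 to 98.7 CPM in IgGL. Without IgGL replicate 1, *Aspn*, *Prelp* and *Ogn* were called higher and *Bgn* and *Vcan* lower in LepL, where 1937 higher and 1602 lower of all 20435 genes were called. With all 3 libraries in the same fit, *Bgn* was the single member called, among 349 higher and 463 lower.

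**Figure D4:**
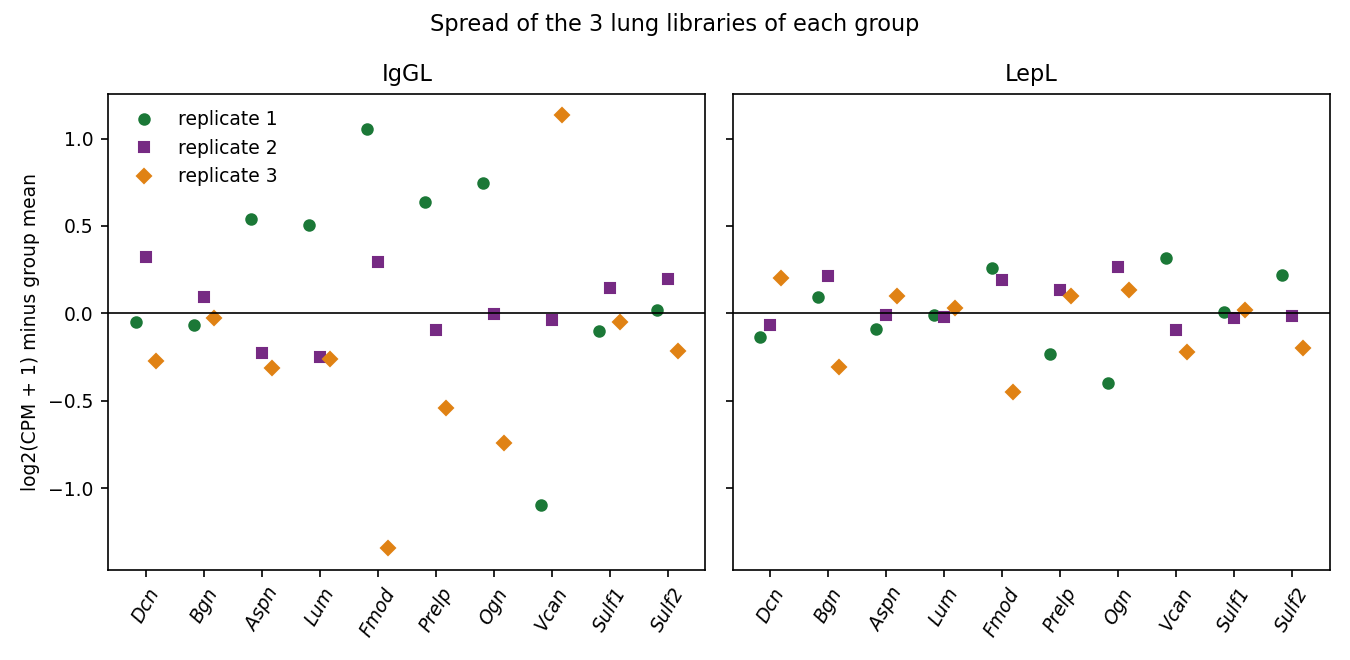
Deviation of each lung library from its group mean on the log2(CPM + 1) scale, for IgGL and LepL. In IgGL, replicate 1 (circles) is above the mean for *Fmod*, *Ogn* and *Prelp* and below it for *Vcan*, replicate 3 (diamonds) is the reverse, and *Bgn*, *Sulf1* and *Sulf2* stay near 0.

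Whether the antibody comparison differed between organs was tested as a difference of the 2 log2 fold changes in a fit to the 12 antibody-treated libraries. *Sulf1* was the single member called, among 7.12% of 21488 genes, 3.62% with the kidney effect below the lung effect and 3.51% with it above. Its kidney change lay below its lung change by 1.89 on the log2 scale (log2 difference -1.89, SE 0.19, Padj = 0.000906). For *Bgn*, lower in both organs, the difference was 0.09 (SE 0.21, Padj = 0.848), an estimate that turned to -0.15 when scaled by library size alone. *Dcn* (-0.73, SE 0.21, Padj = 0.0535) and *Lum* (-0.75, SE 0.29, Padj = 0.127) were lower in the kidney and not called in the lung, and their organ difference did not pass. *Dcn* lay near the threshold, and its organ difference was called when scaled by library size alone (-0.97, Padj = 0.0185), by DESeq2 (-0.72, Padj = 0.0181), with no filter (-0.75, Padj = 0.00139), and without LepK replicate 2 (-0.86, Padj = 0.0406) or IgGL replicate 2 (-0.91, Padj = 0.0390). Without IgGL replicate 1, *Lum* (-1.07, Padj = 0.00638), *Prelp* (-0.93, Padj = 0.00801), *Ogn* (-1.18, Padj = 0.0176) and *Vcan* (1.33, Padj = 0.0355) were called. Of all 22313 genes, 1910 then had the kidney effect called below the lung effect and 1853 above, against 777 and 754 with all libraries. *Ogn* (-0.74, Padj = 0.0193) and *Vcan* (0.92, Padj = 0.0396) were also called with no filter. With all 12 libraries and the filter, *Vcan* (0.94, SE 0.60), *Ogn* (-0.72, SE 0.40), *Prelp* (-0.55, SE 0.31), *Sulf2* (-0.39, SE 0.20), *Fmod* (0.32, SE 0.59) and *Aspn* (-0.27, SE 0.32) had Padj of 0.257 or more. Without both adrenal-positive IgGK libraries, which leaves 1 IgGK library, the *Sulf1* difference was -1.74. Adipocyte markers differed between organs in the direction of *Sulf1*, with 5 of 6 called (median log2 difference -2.29), and 1 of 5 mesothelial, 1 of 10 fibroblast, 1 of 6 alveolar type 2 and 2 of 4 adrenal cortex markers were called in that direction. In the opposite direction, 1 of 5 smooth muscle and 1 of 6 proximal tubule markers were called. Their part in the *Sulf1* result was not tested. Organ, injuring agent, length of the antibody course and day differ together in these groups and cannot be told apart.

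**Figure D5:**
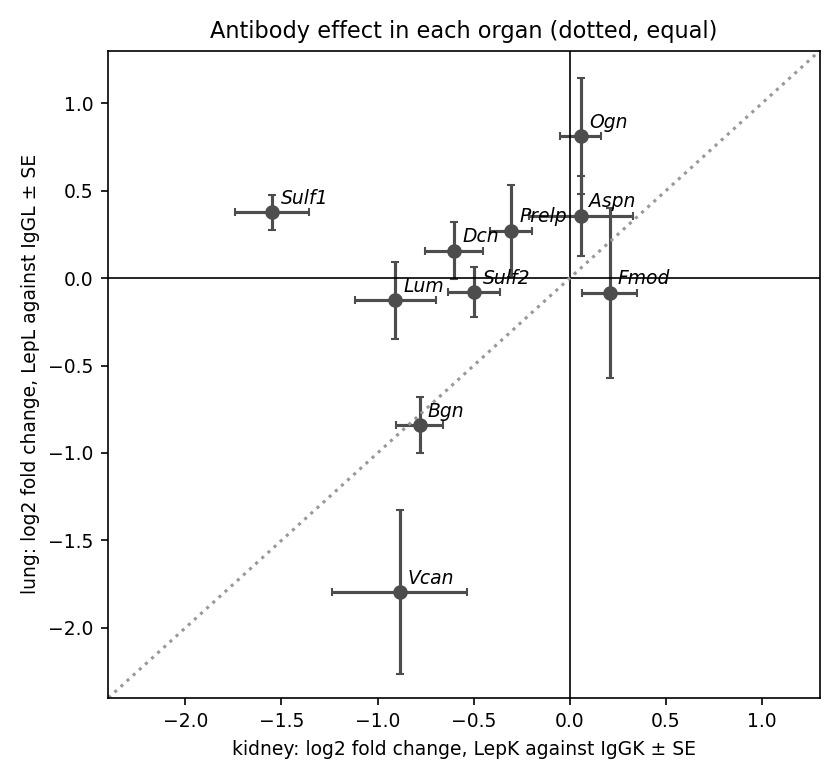
Log2 fold change of LepK against IgGK (horizontal) and LepL against IgGL (vertical) for the 10 genes, with SE bars; the dotted line marks equal change. *Bgn* lies on the line at about -0.8, whereas *Sulf1* is at -1.55 in the kidney and 0.38 in the lung.

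The cluster neighbours of the members were mostly at low levels. *Kera* had 0 counts over all kidney libraries and 4 over all lung libraries, *Epyc* had 12 and 4, *Optc* 42 and 44, and *Omd* 276 and 324. *Dcn* and *Lum* were therefore the 2 genes of their cluster with appreciable counts. *Ecm2*, next to *Aspn*, had 4.82, 2.72 and 4.47 CPM in WTK and 8.57, 8.06 and 8.56 in IgGK and was called higher (log2 fold change 1.07, SE 0.23, Padj = 0.00187), although *Aspn* and *Ogn* beside it were not.

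Of 112 other genes of proteoglycan cores, glycosaminoglycan synthesis and turnover, 93 could be tested in kidney. Values in parentheses after these genes are log2 fold changes. In IgGK against WTK, 31 were called higher and 15 lower, with a median log2 fold change of 0.20, against 0.87 for the 10 members and 0.04 for all genes tested. Among the other small leucine-rich proteoglycans 2 were higher and 3 lower, the latter *Podn* (-0.62), *Tsku* (-1.09) and *Chadl* (-1.17). Matrix proteoglycans had 6 of 8 higher and 1 lower, the 6 including the basement membrane components *Hspg2* (perlecan, 0.80), *Agrn* (agrin, 0.97) and *Col18a1* (1.71). Of the proteases that can cleave versican, *Adamts1* (1.68), *Adamts4* (2.79) and *Adamts5* (0.80) were higher and *Adamts15* (-0.96) lower. The hyaluronan receptor *Cd44* (4.44) and the hyaluronan-degrading *Cemip* (4.16) were higher, while *Hapln1*, which links versican to hyaluronan, was lower (-4.14). *Cemip* and *Hapln1* were low, with mean CPM of 2.33 and 2.22 over the kidney libraries. Of 14 cell surface proteoglycans, the list that holds *Cd44*, 7 were higher and 2 lower, the latter *Gpc4* (-1.09) and *Sdc2* (-0.83). Linker and chondroitin or dermatan sulfate synthesis had 8 of 22 higher and 5 lower, among the latter *Chst11* (-1.01) and *Chst7* (-1.15). Enzymes of heparan sulfate synthesis and turnover, whose product the sulfatases edit, were mostly not called (15 of 18), with heparanase *Hpse* (2.67) and *Hs3st1* (2.48) higher and *Extl1* (-1.19) lower.

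In LepK against IgGK, 3 of these 93 genes were called higher and 10 lower (median -0.16, against -0.55 for the members and -0.01 for all genes). Those lower included *Cd44* (-0.80), *Cemip* (-1.78), *Hpse* (-1.02), *Gpc3* (-0.73), *Gpc6* (-1.19), *Adamts1* (-0.58) and *Dse* (-0.80), an enzyme that makes the dermatan sulfate of decorin and biglycan. *Podn* (0.50), *Chadl* (0.71) and *Hs3st3b1* (0.65) were higher. Calls without both adrenal-positive IgGK libraries are not given, as 1 IgGK library then remains. In LepK against WTK, 21 were higher and 10 lower, with *Cd44* at 3.64, *Col18a1* at 1.22, *Podnl1* at 2.18 and *Hapln1* at -2.68.

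In the lung 101 of the 112 could be tested, and 3 were called higher and 12 lower (median -0.18, against 0.04 for the members and 0.0033 for all genes). Of the 12, 5 belong to linker and chondroitin or dermatan sulfate synthesis, the chains that *Bgn*, *Dcn* and *Vcan* carry, among them the chondroitin sulfotransferase *Chst11* (-1.84), *Chst15* (-0.59), *Chpf2* (-0.72) and *Xylt2* (-0.56). *Adamts1* (-0.81), *Adamts4* (-2.50) and *Adamts15* (-1.06) were lower. *Chst11* (38.2, 68.9 and 154 CPM) and *Adamts4* (19.3, 48.6 and 74.4) were lowest in IgGL replicate 1 and highest in replicate 3, as *Vcan* was. *Ext1* (-0.71), a polymerase of heparan sulfate, was lower, and the leucine-rich *Chad* (2.18) was higher. Leaving out 1 lung library moved the lower count between 0 and 23 and the higher count between 0 and 10, the largest without IgGL replicate 1.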

How the data were processed

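RNA from kidney or lung was sequenced as poly(A) libraries that do not keep strand, 3 per group, and the count matrix came from Novogene. The deposited table holds whole-number read counts per gene and FPKM values that the authors scaled by gene length and by 1 factor per library (1.02 to 1.46). The submitters' processing notes name GRCm39 (mm39), DESeq and DESeq2, and the aligner and counter are not given in the sources used here. The authors' own fold changes and P values were not used.

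Counts were tested in R 4.3.3 with edgeR 4.0.16 (limma 3.58.1): filterByExpr (minimum count 10, minimum total 15), TMM factors, glmQLFit and glmQLFTest, with 9 kidney and 6 lung libraries fitted apart and 12 libraries for the organ difference, which has no fold threshold. Calls used the study's thresholds. DESeq2 1.42.0 and the other alternatives are given in the closing section. The code was tested on simulated data. The table has 15 count columns, each matched to 1 sample by its name. The labels do not tie libraries to mice, but the study counts its lung RNA-seq groups as 3 mice each. For the kidney it gives 3 per group without naming the unit, and p-values there measure the spread between these libraries. Replicates differed by more than sampling noise.

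The members, gene lists and tests were chosen with earlier results of these data known. Named genes are the 10 members, their cluster neighbours, and from each list the called genes with the highest mean CPM, up to 4 per comparison, not all of which are printed. Promoter sequences are from RefSeq (GRCm38.p6), and 7 of the 10 members had an entry.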

Additional observations from a re-analysis of the deposited data

Results flagged for a closer look

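*Sulf1*, which encodes a heparan sulfate 6-O-sulfatase, had an antibody effect that differed between kidney and lung by a direct test of the difference. The log2 fold change of LepK against IgGK minus that of LepL against IgGL was -1.89 (SE 0.19, Padj = 0.000906, edgeR), where kidney levels were 20.2, 25.1 and 19.2 CPM with IgG and 6.52, 6.40 and 9.19 with LepAb, and lung levels were 86.8, 103 and 89.9 with IgG and 122, 119 and 123 with LepAb. All 3 LepK libraries were below all IgGK libraries, and all 3 LepL libraries were above all IgGL libraries. The other 9 genes did not pass this test.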

How the results depend on the processing

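With 3 libraries per group, and the 2 adrenal-positive IgGK libraries among them, calls near a threshold were unstable, and the cause of each change below was not tested. In IgGK against WTK, the count of members called lower, 1, was 0 when scaled by library size alone, with a log2 fold threshold of 1, and with kidney and lung in 1 fit. The count higher was 4 with the threshold of 1, and 49 list genes were higher when scaled by library size alone. *Prelp* (0.52, Padj = 0.0684) and *Vcan* (0.90, Padj = 0.151) were not called higher by edgeR with kidney and lung in 1 fit. In LepK against IgGK, members called lower were 1 with the threshold of 1 and 6 when scaled by library size alone. *Vcan* and *Sulf2* were also called lower with no filter, *Vcan* with only the 2 groups compared, and *Sulf2* with no fold threshold. List genes there were 0 higher and 20 lower with library size alone, 5 higher with DESeq2, 7 and 17 with no fold threshold, 0 and 3 with the threshold of 1, and 0 higher in 1 fit. Fits without both adrenal-positive libraries leave 1 IgGK library, so their calls are not counted here. In LepK against WTK, list genes were 34 higher and 6 lower with library size alone and 12 and 5 with the threshold of 1. Among members, *Sulf2* was also called higher by edgeR with library size alone (0.61, Padj = 0.00789), and *Dcn* (0.72) was under the threshold of 1. With no fold threshold 20 list genes and 1 member, *Fmod*, were lower.

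In LepL against IgGL, 2 members were lower with DESeq2, with no filter and in 1 fit, 1 was higher with no filter and in 1 fit, and 0 were lower with the threshold of 1. List genes were 6 higher with DESeq2, 9 higher and 19 lower with no filter, and 4 lower with the threshold of 1. For the organ difference, 2 members were called with library size alone or DESeq2 and 4 with no filter. Summed CPM per kilobase in place of FPKM gave 52.5, 132, 85.9, 429 and 339 in WTK, IgGK, LepK, IgGL and LepL, in the same order.

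Replicate numbers recur across groups. Deviations of same-numbered libraries correlated at -0.02 to 0.07 for the folic acid comparison. They correlated at -0.05 to 0.26 for the antibody in the kidney and -0.12 to 0.14 for the antibody in the lung. With 3 libraries per group, these values cannot exclude that the numbers pair the samples. With the replicate number as a block, 0 members and 0 list genes were called in either direction in the lung (*Bgn* -0.85, Padj = 0.0794, edgeR). Of all 19617 genes tested there, 1 was called higher and 3 lower, and 4815 had an unadjusted p under 0.05. *Fmod* turned to 0.19 in that fit. Counts of member calls elsewhere were those without the block.

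Leaving out 1 library gave 5 to 7 members higher and 1 lower in IgGK against WTK, 3 to 5 lower in LepK against IgGK, 0 to 1 lower in LepK against WTK, 0 to 3 higher and 0 to 2 lower in the lung, and 1 to 5 for the organ difference, the 5 without IgGL replicate 1. List genes ran from 0 to 6 higher and 7 to 18 lower for the antibody in the kidney, and from 0 to 10 higher and 0 to 23 lower in the lung.

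With library size alone *Ogn* turned sign to 0.23, -0.13 and 0.10 (folic acid, antibody in kidney, LepK against vehicle), *Aspn* to -0.12 for the antibody in kidney and *Bgn* to -0.15 for the organ difference. With 1 library left out, *Aspn* ran from -0.035 to 0.28 after folic acid and from -0.011 to 0.18 with the antibody in kidney, *Ogn* from -0.0069 to 0.17 in the latter, and *Vcan* from -0.37 to 0.29 in LepK against vehicle, also turning to -0.13. In the lung *Lum* ran from -0.27 to 0.19, *Fmod* from -0.51 to 0.54 and *Sulf2* from -0.20 to 0.023. For the organ difference *Bgn* ran from -0.049 to 0.20 and *Fmod* from -0.30 to 0.72. The members named in these sentences were not called in those comparisons. The *Sulf1* organ difference stayed called in every setting that left more than 1 library per group.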
